A study of Mus musculus with 7 samples.

Results

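The 8 genes described here encode the Kv4 potassium channel complex: the pore subunits Kcnd2 (Kv4.2) and Kcnd3 (Kv4.3), the DPP-like auxiliary subunits Dpp6 and Dpp10, and the KChIP auxiliary subunits Kcnip1, Kcnip2, Kcnip3 and Kcnip4. They were taken by symbol from the 55416 gene identifiers of the count tables and were selected on the level of Dpp10, which was high in both libraries from ONX-0914-treated mice. The levels of Dpp10 under ONX-0914 are therefore given as a description without a test. All 8 passed the filter on low counts, with at least 34 counts in every library.

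Kv4 channels carry a fast, transient outward potassium current, the A-type current, that opens below the spike threshold. In pyramidal neurons of the hippocampus this current restrains the excitability of dendrites and the back-propagation of action potentials. The pore is built from Kv4 alpha subunits. KChIPs are calcium-binding proteins that attach to the cytoplasmic N-terminus of Kv4, and most of them raise its surface expression and slow its inactivation, whereas the DPP-like proteins span the membrane once, speed up its gating and belong to the dipeptidyl peptidase family without being active peptidases.

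The hippocampus of male, age-matched, outbred CD1 mice was sequenced in 7 libraries. Control (untreated) mice gave 3 libraries (replicates 1 to 3), mice injected with the vehicle DMSO gave 2 (replicates 2 and 3), and mice injected with ONX-0914, an inhibitor of non-constitutive proteasomes, gave 2 (replicates 1 and 2). Each injection of ONX-0914 was intraperitoneal and held 10 mg/kg, and mice got 2 injections a week for 2 months. DMSO mice got the same volume of vehicle as often. The labels do not state that each library came from a different animal, so p-values measure the spread between these samples.

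The sequences that set the members apart from their relatives are shown from the GENCODE M21 transcripts of the mouse reference, as coding DNA and not as read from these libraries. Around the codon of the nucleophile serine by which Dpp4 cleaves peptides, the coding strands of Dpp4, Dpp6 and Dpp10 read as follows, with the codon at the aligned position in capitals, which is codon 624 of Dpp4, codon 706 of Dpp6 and codon 655 of Dpp10.
Dpp4: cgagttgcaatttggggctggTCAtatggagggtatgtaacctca
Dpp6: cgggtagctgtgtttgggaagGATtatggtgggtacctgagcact
Dpp10: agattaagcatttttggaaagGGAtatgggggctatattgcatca
The flanking codons can be aligned between the 3 genes, but neither Dpp6 nor Dpp10 has a serine codon at the capital position. Over their whole coding sequences, Dpp6 and Dpp10 were identical at 57.5% of aligned bases, and Dpp4 was identical to Dpp10 at 50.7% and to Dpp6 at 46.7%.

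The pore subunits differ far less from each other. Kcnd2 and Kcnd3 were identical at 72.6% of aligned coding bases. The coding sequences of the 4 KChIP genes were identical at 66.7% to 72.5% of aligned bases between pairs. At the read length of 100 bases, the members did not share exonic sequence with each other. No window of 100 exonic bases of Dpp6, Kcnd2, Kcnip1, Kcnip2 or Kcnip3 recurred in another gene, and 1.23% of the windows of Dpp10, 0.69% of those of Kcnd3 and 0.27% of those of Kcnip4 did so. All of the recurring windows were in genes outside the complex.

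The libraries held 2842675 to 3877006 counts on genes, except ONX-0914 replicate 2 with 13782270. Its mitochondrially encoded genes took 3.71% of the counts, against 0.82% to 1.59% elsewhere. The ONX-0914 libraries also stood apart from the rest in markers of brain regions. The summed level of 10 hippocampal neuron markers was 1177 to 1219 CPM (counts scaled to the library size, with TMM factors) in the control and DMSO libraries, and it was 279 CPM in the first ONX-0914 library (replicate 1) and 919 CPM in the second, and no hippocampal marker was at 0 in any library. In ONX-0914 replicate 1, all 10 thalamus and midbrain markers and all 10 striatum markers lay above all control libraries, with summed levels of 1305 and 1390 CPM against 124 to 175 CPM and 237 to 274 CPM in the control and DMSO libraries. In replicate 2 these sums were 174 and 211 CPM, with 5 and 3 of the 10 markers above all controls. The share of all genes above all controls in a single library was not computed, here or for the other marker lists. Such counts are therefore descriptions. Among the defining thalamic markers, Gbx2 was at 0 in 4 libraries, ONX-0914 replicate 2 included, and among the striatal ones Gpr6 was at 0 in DMSO replicate 2. The Log2FC of a member is therefore also given without either ONX-0914 library. It is given where that turned its sign, changed its call or moved it by more than 1.5 times. In such a fit the remaining ONX-0914 library has no replicate of its own and is assumed to vary like the other groups. For single genes the Log2FC alone is therefore given. The part of these markers in the results was not tested. In bulk tissue, fewer cells of a type and less RNA per cell cannot be told apart.

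**Figure D1:**
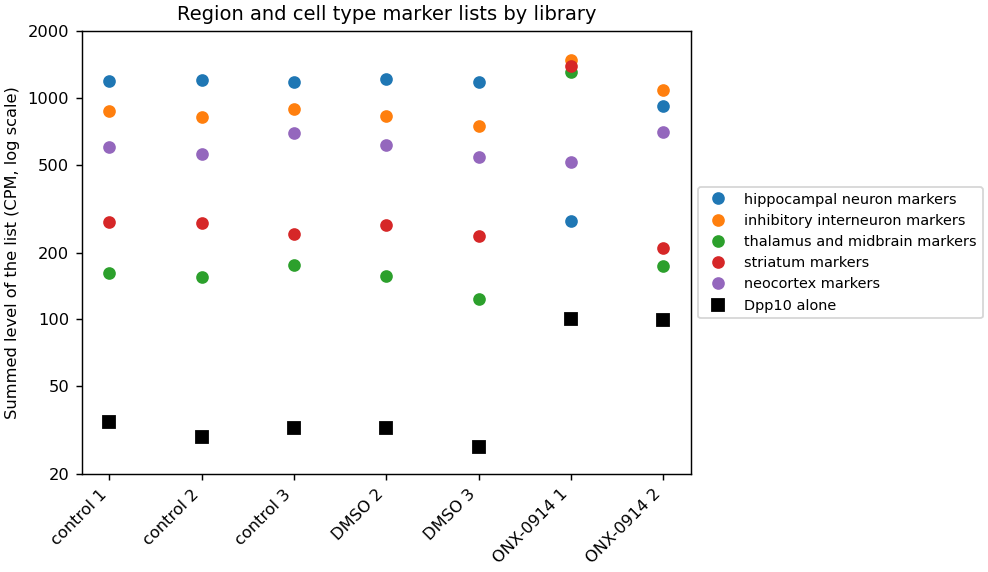
Summed level of 5 marker lists (10 genes each) and the level of Dpp10 alone in each of the 7 libraries, in CPM on a log axis, 1 point per library. The hippocampal list is lowest in ONX-0914 replicate 1 (279 CPM), where the thalamus and midbrain list (1305 CPM) and the striatum list (1390 CPM) are highest, while Dpp10 is about as high in replicate 2 (99.1 CPM) as in replicate 1 (101 CPM).

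Among the DPP-like subunits, Dpp10 transcripts were more than 3 times as abundant under ONX-0914 as in either other group. Dpp6 transcripts were slightly lower than in control, without being called. Dpp10 (ENSMUSG00000036815) had 34.2, 29.5 and 32.2 CPM in control, 32.2 and 26.4 CPM with DMSO, and 101 and 99.1 CPM with ONX-0914. The control and DMSO libraries overlapped, and both ONX-0914 libraries lay above all 5 others, close to each other although one was sequenced far more deeply. The raw counts behind these levels were 96, 108 and 117 in control, 120 and 74 with DMSO, and 400 and 1500 with ONX-0914, so that counting error alone gives 95% Poisson limits of 20.7 to 33.2 CPM for the shallowest value and 94.2 to 104 CPM for the deepest.

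The mean level of Dpp10 in control was 32.0 ± 2.40 CPM (SD, n = 3). With DMSO it was 29.3 ± 4.09 CPM (SD, n = 2), and with ONX-0914 it was 99.9 ± 1.10 CPM (SD, n = 2). The fitted Log2FC of ONX-0914 against control was 1.65 (standard error 0.171), a 3.13-fold higher level, and against DMSO it was 1.77 (standard error 0.196), a 3.40-fold higher level. Both ONX-0914 libraries lay above all 5 others for 1496 of the 13152 genes tested (11.4%), and this is the pattern for which Dpp10 was chosen. Without ONX-0914 replicate 1 the Log2FC against control was 1.63, and without replicate 2 it was 1.66. Per kilobase of exon, Dpp10 lay at the 21st to 27th percentile of the tested genes in the control and DMSO libraries and at the 54th to 55th in both ONX-0914 libraries.

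Between DMSO-treated and control mice, Dpp10 had a Log2FC of -0.12 (standard error 0.181). The choice of Dpp10 set its ONX-0914 libraries against these 5, so this value too is given as a description. The control and DMSO ranges of Dpp10 overlapped.

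Dpp6 (ENSMUSG00000061576), the closest relative of Dpp10 and the DPP-like subunit found with Kv4.2 in hippocampal pyramidal cells, had 342, 325 and 340 CPM in control, 340 and 272 CPM with DMSO, and 275 and 277 CPM with ONX-0914. Both ONX-0914 libraries were below all 3 control libraries and inside the range of the DMSO libraries. The Log2FC was -0.28 against control (standard error 0.17, FDR = 0.391, edgeR) and -0.15 against DMSO (FDR = 0.694, edgeR), so no difference was called.

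On the scale per kilobase of exon, where genes can be roughly compared with each other, Dpp6 was the major DPP-like subunit in every library. This scale divides by all annotated exons of a gene, not by the length of the transcripts expressed, so shares are approximate. Dpp10 made up 7.27%, 6.61% and 6.90% of the summed DPP-like level in control, 6.89% and 7.07% with DMSO, and 22.3% and 21.9% with ONX-0914. The summed level was 28.2 to 29.8 CPM per kb in control and 28.7 in both ONX-0914 libraries. With DMSO it was 29.6 in replicate 2 and lower, 23.7, in replicate 3. The level of Dpp6 per kb under ONX-0914 was 22.4 ± 0.103 (SD, n = 2). It was 27.2 ± 0.73 (SD, n = 3) in control and 24.8 ± 3.925 (SD, n = 2) with DMSO. DMSO replicate 3, with a Dpp10 share of 7.07%, had a Dpp6 level of 22.0 per kb, below both ONX-0914 libraries. Since Dpp10 was chosen for its level, this shift in shares was not tested.

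**Figure D2:**
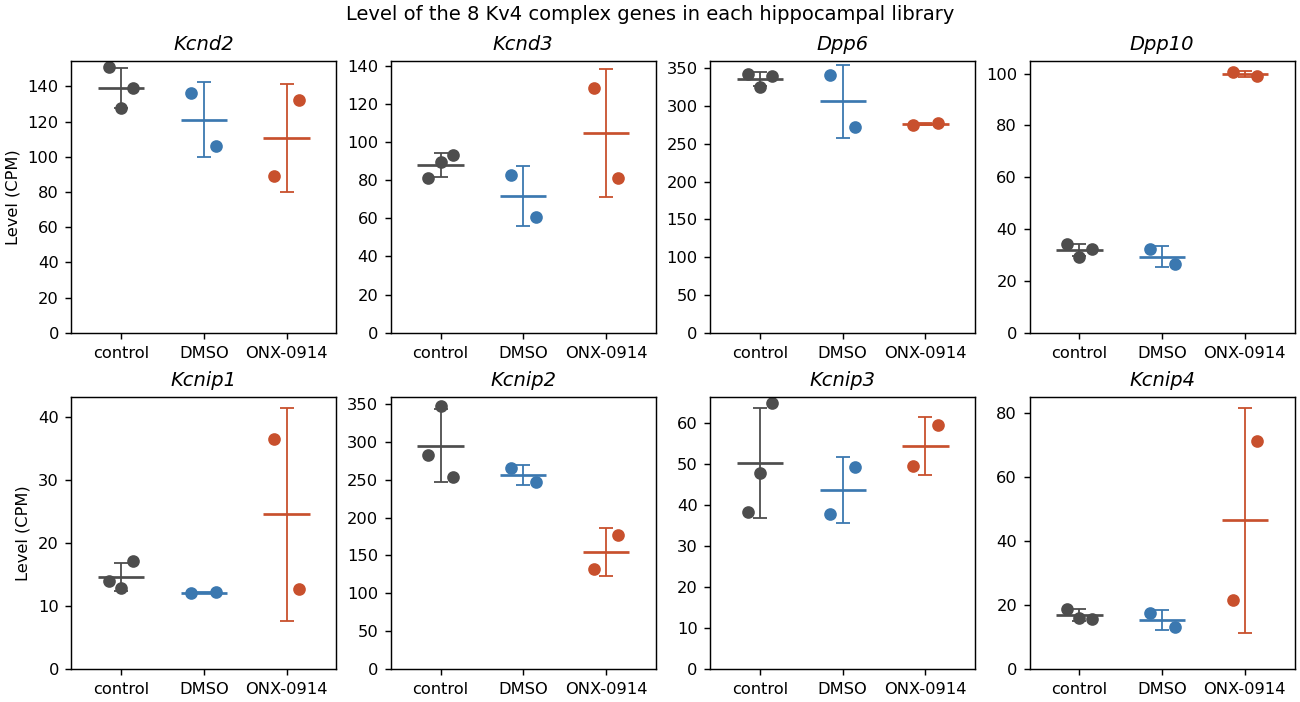
Level of each of the 8 genes in CPM (linear axis from 0), 1 point per library, with the group mean as a horizontal bar and the SD as an error bar (n = 3 for control, 2 for DMSO and 2 for ONX-0914). Both ONX-0914 points lie above all others for Dpp10 and Kcnip4 and below all others for Kcnip2, and the 2 ONX-0914 points are far apart for Kcnip1 (36.5 and 12.6 CPM) and Kcnip4 (21.6 and 71.2 CPM).

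For the other 7 members, 0 were called between ONX-0914-treated and control mice by edgeR, against 0.114% of all 13152 genes tested, with FDR values from 0.108 to 0.821. An unadjusted p under 0.05 was reached by 2 of the 7, Kcnip2 and Kcnip4, where 18.6% of all genes reached it, and DESeq2 called 1, Kcnip2, where it called 3.01% of all genes with an adjusted p. Their Log2FC was positive for 4 and negative for 3, with a median of 0.12 against 0.05 for all genes. The ONX-0914 libraries lay above all controls for 1 of the 7 and below them for 2, where 16.9% and 16.3% of all genes did so. Without a filter on low counts 2 were called (Kcnip2 and Kcnip4), where 2.15% of all genes were. The count was also 2 (the same 2 genes) when ONX-0914 replicate 1 was left out, with 51.2% of all genes called, and 4 (Kcnd2, Kcnd3, Kcnip1 and Kcnip2) when replicate 2 was left out, with 19% of all genes called.

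The same 7 were compared between mice given ONX-0914 and mice given DMSO, so that both groups had been injected. Both comparisons share the ONX-0914 libraries. These also differed from the DMSO libraries in markers of brain regions, so the comparison does not isolate the inhibitor. Here too 0 of the 7 were called by edgeR, against 0.0456% of all genes, and 0 by DESeq2, which called 2.2%. The unadjusted p was under 0.05 for 2 of the 7, again Kcnip2 and Kcnip4, where 14.7% of all genes reached it. The ONX-0914 libraries lay above both DMSO libraries for 3 and below them for 1, where 20.8% and 19.7% of all genes did so. Without a filter on low counts 1 was called (Kcnip4; 1.11% of all genes), without ONX-0914 replicate 1 there were 2 (Kcnip2 and Kcnip4; 46% of all genes), and without replicate 2 there were 3 (Kcnd3, Kcnip1 and Kcnip2; 17% of all genes).

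**Figure D3:**
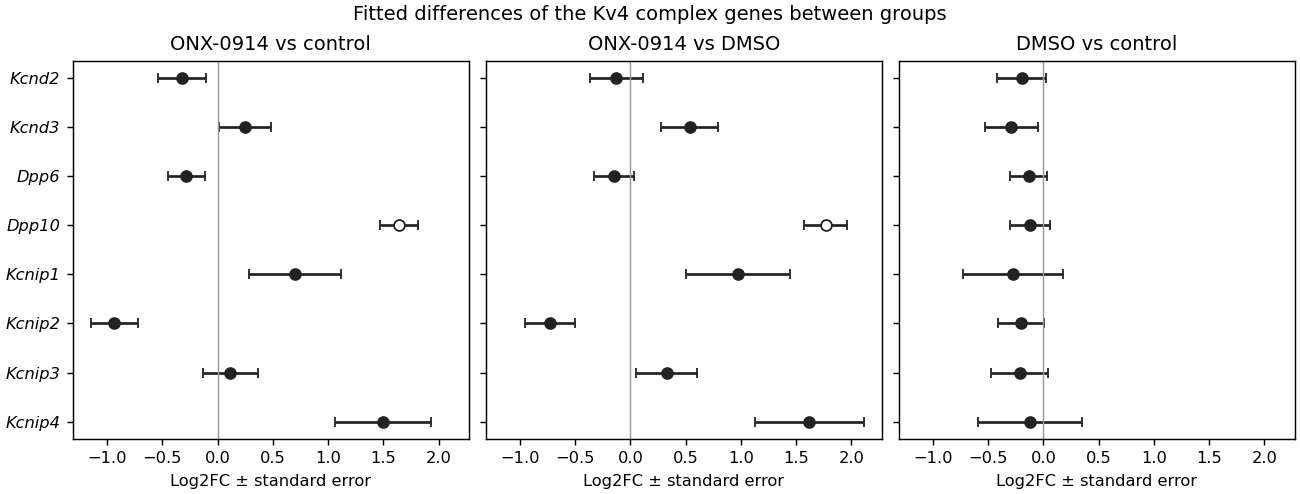
Fitted Log2FC with its standard error for the 8 genes in the 3 comparisons, with a vertical line at 0. Open circles mark Dpp10 in the ONX-0914 comparisons, where it was chosen for its value and not tested; Kcnip2 has the lowest values (-0.93 and -0.73 under ONX-0914) and Kcnip4 the highest after Dpp10 (1.50 and 1.62), and all 8 genes are slightly below 0 in DMSO against control.

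For neither pore subunit did both ONX-0914 libraries lie on the same side of all controls. Kcnd2 (ENSMUSG00000060882), whose product Kv4.2 is the main Kv4 pore of hippocampal pyramidal dendrites, had 151, 128 and 139 CPM in control, 136 and 106 CPM with DMSO, and 89.1 and 132 CPM with ONX-0914. ONX-0914 replicate 1 was below every other library, whereas replicate 2 was inside the control range. The Log2FC against control was -0.32 (standard error 0.218, FDR = 0.436, edgeR), and against DMSO it was -0.13 (FDR = 0.802, edgeR), or 0.11 without ONX-0914 replicate 1 and -0.455 without replicate 2. Without ONX-0914 replicate 1 the value against control was -0.08, and without replicate 2 it was -0.64.

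Kcnd3 (ENSMUSG00000040896), whose product Kv4.3 is found in interneurons and in many neurons outside the hippocampus, had 80.9, 89.4 and 93.4 CPM in control, 82.9 and 60.7 CPM with DMSO, and 128 and 81.0 CPM with ONX-0914. Here replicate 1 was above every other library and replicate 2 was within the control range. The Log2FC was 0.25 against control (standard error 0.235, FDR = 0.588, edgeR) and 0.54 against DMSO (standard error 0.261, FDR = 0.368, edgeR). The direction against control rested on replicate 1, since without it the Log2FC was -0.13 and without replicate 2 it was 0.54. Against DMSO it was 0.15 without replicate 1 and 0.82 without replicate 2. Kcnd3 overlaps the antisense gene Kcnd3os, which had at most 9 counts in a library.

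Per kilobase of exon, Kcnd3 made up 22.4%, 27.4% and 26.6% of the summed pore level in control, 24.6% and 23.5% with DMSO, and 43.6% and 24.8% with ONX-0914. Only ONX-0914 replicate 1, the library with the raised thalamic and striatal markers, lay outside the range of the control and DMSO libraries. The log2 ratio of Kcnd3 to Kcnd2 was 0.57 higher under ONX-0914 (exact permutation test, two-sided p = 0.4), and with 2 libraries against 3 this test cannot give a p below 0.1.

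The KChIP subunits differed most among themselves. Kcnip2 was lower and Kcnip4 higher in both ONX-0914 libraries than in the 5 others, but neither was called. Kcnip1 was high in 1 ONX-0914 library alone, and the values of Kcnip3 overlapped between ONX-0914 and control.

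Kcnip2 (ENSMUSG00000025221), the gene of KChIP2, had 283, 348 and 254 CPM in control, 266 and 247 CPM with DMSO, and 132 and 177 CPM with ONX-0914. The groups did not overlap, and the control and DMSO libraries did. Both ONX-0914 libraries lay below all 5 others for 1492 of the tested genes (11.3%). Mean levels were 295 ± 48.0 CPM (SD, n = 3) for control libraries, 257 ± 13.1 CPM (SD, n = 2) for DMSO libraries and 154 ± 32.1 CPM (SD, n = 2) for ONX-0914 libraries, the last a level 1.91-fold below control in the fit.

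The Log2FC of Kcnip2 was -0.93 against control (standard error 0.212, FDR = 0.108, edgeR) and -0.73 against DMSO (standard error 0.227, FDR = 0.233, edgeR). It was called against control by DESeq2 (Log2FC -0.94, adjusted p = 0.0118) and by edgeR without a filter on low counts (FDR = 0.0341). The highest FDR over all alternatives was 0.408 (edgeR, without control replicate 2). Without ONX-0914 replicate 1 the Log2FC against control was -0.75 and without replicate 2 it was -1.17. Against DMSO these values were -0.55 and -0.97. Hippocampal neuron markers were lower in the same libraries, with a negative Log2FC for 8 of the 10 and a positive one for Wfs1 and Spink8. Their part in the level of Kcnip2 was not tested.

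Kcnip4 (ENSMUSG00000029088), the gene of KChIP4, had 18.9, 15.8 and 15.7 CPM in control, 17.4 and 13.2 CPM with DMSO, and 21.6 and 71.2 CPM with ONX-0914. The first ONX-0914 library was just above the highest control, with 95% Poisson limits of 17.3 to 26.7 CPM that include it, and the second was far above all others on 1078 counts. The mean under ONX-0914 was 46.4 ± 35.1 CPM (SD, n = 2) against 16.8 ± 1.81 CPM (SD, n = 3) in control.

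The Log2FC of Kcnip4 was 1.50 against control (standard error 0.43, FDR = 0.152, edgeR) and 1.62 against DMSO (standard error 0.492, FDR = 0.23, edgeR). Its size depended on 1 library: without ONX-0914 replicate 2 the Log2FC against control was 0.37, and without replicate 1 it was 2.08. Against DMSO it was 0.47 without replicate 2 and 2.18 without replicate 1. In the fit without replicate 1, the remaining ONX-0914 library has no replicate of its own and is assumed to vary like the other groups, and 51.2% of all genes were then called. Exons of Kcnip4 overlap those of 5730480H06Rik on the opposite strand, which had up to 139 counts in a library, and the strand setting of the counting is not given in the sources used here.

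Kcnip1 (ENSMUSG00000053519), the gene of KChIP1 and known from GABAergic interneurons, had 13.9, 12.8 and 17.1 CPM in control, 12.1 CPM in both DMSO libraries, and 36.5 and 12.6 CPM with ONX-0914. ONX-0914 replicate 1 was above every other library. Replicate 2 was just below the lowest control and just above both DMSO libraries, with 95% Poisson limits of 10.9 to 14.5 CPM that include all of these. The Log2FC was 0.70 against control (standard error 0.415, FDR = 0.386, edgeR) and 0.97 against DMSO (standard error 0.472, FDR = 0.368, edgeR). Leaving out ONX-0914 replicate 1 gave -0.22 for the former, and leaving out replicate 2 gave 1.31. Against DMSO the Log2FC was 0.051 without replicate 1 and 1.59 without replicate 2.

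The summed level of inhibitory interneuron markers was higher in both ONX-0914 libraries than elsewhere, but single markers went both ways. Under ONX-0914 their summed level was 1476 CPM (replicate 1) and 1087 CPM (replicate 2), against 816 to 886 CPM in control and 827 and 745 CPM with DMSO. Of the 10 markers, 4 were above all controls in replicate 1 and 6 in replicate 2, and none was at 0 in any library. The 4 in replicate 1, where Kcnip1 was high, were Gad1, Gad2, Slc32a1 and Pvalb, whereas Sst, Lamp5 and Cck were below all controls there. Over the 10 markers, the median log2 difference from control was 0.134 in replicate 1 and 0.147 in replicate 2. Their part in the level of Kcnip1 was not tested.

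Kcnip3 (ENSMUSG00000079056), whose product is also known as DREAM or calsenilin, had 38.2, 47.7 and 64.7 CPM in control, 37.8 and 49.3 CPM with DMSO, and 49.3 and 59.3 CPM with ONX-0914. The ONX-0914 libraries were inside the control range and above both DMSO libraries, replicate 1 by less than its counting error. The Log2FC was 0.12 against control (standard error 0.25, FDR = 0.821, edgeR) and 0.33 against DMSO (FDR = 0.566, edgeR), and the former was -0.045 without control replicate 1 and -0.044 without ONX-0914 replicate 2. Without ONX-0914 replicate 1 it was 0.22, and the value against DMSO was 0.19 without replicate 2.

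Per kilobase of exon, Kcnip2 was the major KChIP in every library, with a smaller share under ONX-0914. Its share of the summed KChIP level was 81.7%, 83.4% and 74.3% in control, 81.5% and 78.5% with DMSO, and 59.5% and 57.0% with ONX-0914. The share of Kcnip4 was 3.63% to 5.23% in the control and DMSO libraries, 9.38% in ONX-0914 replicate 1 and 22.0% in replicate 2. Kcnip1 took 1.72% to 2.8% in the control and DMSO libraries, 9.25% in ONX-0914 replicate 1 and 2.28% in replicate 2.

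The genes with a larger share in place of Kcnip2 were not the same in both ONX-0914 libraries. In replicate 2 it was mainly Kcnip4, and in replicate 1 Kcnip1, Kcnip3 and Kcnip4 all had a larger share than in any control or DMSO library. Kcnip3 took 21.9% there, against 10.8% to 18.5% in the control and DMSO libraries and 18.7% in ONX-0914 replicate 2. The summed KChIP level was 98.5 to 120 CPM per kb in control, 93.9 and 90.7 with DMSO, and 63.6 and 89.3 with ONX-0914. The mean log2 ratios of Kcnip4 and of Kcnip1 to Kcnip2 were 2.17 and 1.51 higher under ONX-0914 than in control (exact permutation tests, two-sided p = 0.1 for each, the smallest p that 2 libraries against 3 allow). The ratio of Kcnip1 to Kcnip2 was 0.155 in ONX-0914 replicate 1 and 0.040 in replicate 2, against 0.021 to 0.038 in control. Its difference thus rested mainly on replicate 1. The ratio of Kcnip4 to Kcnip2 was 0.158 and 0.386 in replicates 1 and 2, against 0.044 to 0.064 in control. For Kcnip3 to Kcnip2 the difference was 1.08 (exact permutation test, two-sided p = 0.2).

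**Figure D4:**
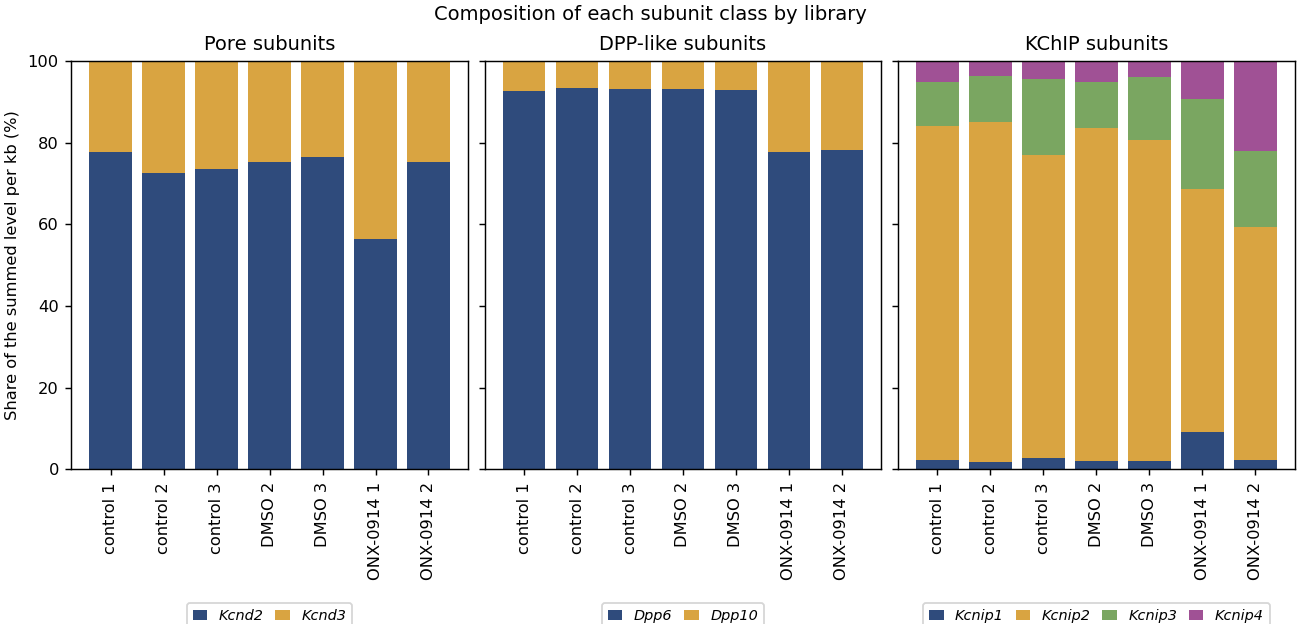
Share of each gene in the summed level per kilobase of exon of its subunit class, in percent, as stacked bars for the 7 libraries. Dpp10 takes 22.3% and 21.9% of the DPP-like level in the ONX-0914 libraries against 6.61% to 7.27% elsewhere, Kcnd3 takes 43.6% of the pore level in ONX-0914 replicate 1 alone, and Kcnip2 takes 59.5% and 57.0% of the KChIP level under ONX-0914 against 74.3% to 83.4% elsewhere.

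No member was called with DMSO alone. Of the 8 members, with Dpp10 counted although its control and DMSO levels took part in its choice, 0 were called by edgeR between DMSO-treated and control mice, against 0.0152% of all genes, 0 had an unadjusted p under 0.05, where 2.65% of all genes did, and 0 were called by DESeq2, which called 0.0684% of all genes. All 8 had a negative Log2FC, from -0.29 for Kcnd3 to -0.12 for Dpp10 and Kcnip4, with a median of -0.20 against -0.0032 for all genes. Long genes had lower medians here, -0.12 for tested genes spanning 200 to 500 kb and -0.11 for longer ones. The part of gene length in the values of the members was not tested. The sign was shared under total-count, RLE and TMM scaling, but 3 of the 8 were positive without DMSO replicate 3. Kcnip1 was the 1 member whose DMSO libraries lay below all controls, where 15.7% of all genes had their DMSO libraries above and 15% below all controls.

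Beyond the complex itself, 17 genes of Kv4 modulators and partners were tested, among them scaffolds, kinases, calcium channels and other auxiliary subunits. The edgeR test called none in ONX-0914 against control, DMSO against control or ONX-0914 against DMSO. It called 0.114%, 0.0152% and 0.0456% of all genes there. In the same order, 6, 0 and 2 of the 17 had an unadjusted p under 0.05, where 18.6%, 2.65% and 14.7% of all genes did. DESeq2 called 2 in each ONX-0914 comparison, Kcnab2 and Cacna1g, where it called 3.01% (against control) and 2.2% (against DMSO) of all genes. Between DMSO and control it called 0 of the 17 and 0.0684% of all genes. In ONX-0914 against control, 7 of the 17 had a positive and 10 a negative Log2FC, with a median of -0.08.

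Kcnab2, the gene of a cytoplasmic Kv-beta subunit known mainly from Kv1 channels, had the lowest Log2FC of this list. It stood at 1983, 2003 and 1924 CPM in control, 2006 and 1910 CPM with DMSO, and 930 and 864 CPM with ONX-0914, so the ONX-0914 libraries were near each other and below all 5 others. Its Log2FC was -1.13 against control (FDR = 0.0728, edgeR) and -1.13 against DMSO (FDR = 0.12, edgeR).

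Cacna1g, the gene of the T-type calcium channel Cav3.1, had the highest Log2FC of the list. It stood at 33.2, 39.0 and 35.2 CPM in control, 27.4 and 32.8 CPM with DMSO, and 112 and 58.0 CPM with ONX-0914. Both ONX-0914 libraries were above all 5 others, with replicate 1 far above replicate 2. Its Log2FC was 1.24 against control (FDR = 0.105, edgeR) and 1.49 against DMSO (FDR = 0.133, edgeR).

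Of the peptidases related to the DPP-like subunits, Dpp7, Dpp8 and Dpp9 were tested and none was called by edgeR or DESeq2 in any comparison. The shares of all genes called were those given for the Kv4 partners. There was 1 unadjusted p under 0.05, in ONX-0914 against DMSO, where 14.7% of all genes had one. Their Log2FC of ONX-0914 against control ran from -0.27 for Dpp8 to 0.68 for Dpp7, with FDR values of 0.418 to 0.458 (edgeR). The other 2 genes of the family, Dpp4 and Fap, had too few counts to be tested, and Dpp4 had 0.545 to 2.71 CPM over the 7 libraries.

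Of the neuronal calcium sensors, relatives of the KChIPs, 6 of 7 were tested and none was called by edgeR. The shares of all genes called were again those given for the Kv4 partners. In ONX-0914 against control, DMSO against control and ONX-0914 against DMSO, 2, 0 and 2 of them had an unadjusted p under 0.05. The shares of all genes were 18.6%, 2.65% and 14.7%. DESeq2 called 1, Hpca, in each ONX-0914 comparison, where it called 3.01% (against control) and 2.2% (against DMSO) of all genes. Hpca, the gene of hippocalcin and abundant in hippocampal pyramidal cells, had the lowest Log2FC, -1.24 against control (FDR = 0.199, edgeR). Its levels of 446 and 1375 CPM with ONX-0914 were below the 1968 to 2635 CPM of the control and DMSO libraries. Hpcal1 had the highest, 0.88 (FDR = 0.165, edgeR), with 42.5 and 28.4 CPM against 14.6 to 22.8 CPM.

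The genes whose profile over the 7 libraries was most like that of Dpp10 were not members of the complex. Likeness was measured as the root-mean-square difference of log2 CPM, centred per gene, over 13151 genes, and includes the libraries for which Dpp10 was chosen. The closest were Mapk6, an atypical MAP kinase gene (0.201), Cux2, a transcription factor gene of upper-layer cortical neurons (0.204), Gucy1a1, a subunit gene of soluble guanylate cyclase (0.206), Camk2n2, a CaMKII inhibitor gene (0.214), and Olfm3, a secreted olfactomedin gene (0.214). All 5 were higher in both ONX-0914 libraries than in the 5 others.

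Cux2, for example, had 24.2, 24.3 and 31.7 CPM in control, 25.5 and 22.1 CPM with DMSO, and 61.4 and 69.9 CPM with ONX-0914. Gucy1a1 had the highest Log2FC against control of the 5, 1.79, and Cux2 the lowest, 1.30. Cux2 is also 1 of the 10 neocortex markers, whose summed level was 513 and 701 CPM in ONX-0914 replicates 1 and 2 against 541 to 692 CPM in the other libraries. Of these 10 markers, 3 were above all controls in replicate 1 and 6 in replicate 2, and their part in the level of Dpp10 was not tested.

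Among the members, the nearest to Dpp10 by the same measure was Kcnip4, at rank 455 of the 13151 genes, followed by Kcnip1 at rank 1791 and Kcnd3 at rank 2159. Dpp6 stood at rank 7802, and Kcnip2, which was lower where Dpp10 was higher, at rank 12085. The members were thus spread over the whole ranking.

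**Figure D5:**
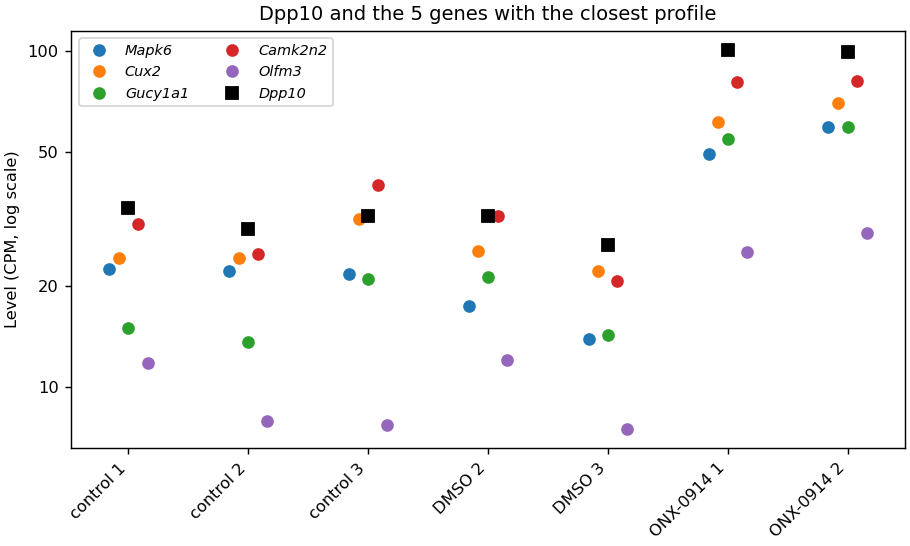
Level of Dpp10 (black squares) and of the 5 genes with the most similar profile (circles, shifted sideways to separate them) in each of the 7 libraries, in CPM on a log axis. All 6 genes are higher in both ONX-0914 libraries than in the control and DMSO libraries, as the measure of likeness requires, with Dpp10 at 101 and 99.1 CPM and Olfm3 lowest at 25.2 and 28.8 CPM.

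Dpp10, Dpp6, Kcnd2 and Kcnip4 are long genes, spanning 724, 910, 514 and 1135 kb from first to last exon, while Kcnip2 spans 24.2 kb. Long genes as a class had about the same Log2FC as short ones in ONX-0914 against control. In DMSO against control they were lower, with a median of -0.11 above 500 kb against 0.07 up to 10 kb. The 206 tested genes longer than 500 kb had a median Log2FC of 0.06 between ONX-0914 and control, against 0.06 for the 3210 genes of up to 10 kb, and the members longer than 500 kb included both positive (Dpp10, Kcnip4) and negative (Dpp6, Kcnd2) values.

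Further lists held markers of glia and of the choroid plexus. In the first and second ONX-0914 library, summed levels were 4264 and 4499 CPM for 6 astrocyte markers against 5084 to 5473 CPM elsewhere, 6902 and 3621 CPM for 7 oligodendrocyte lineage markers against 3754 to 6709 CPM, 293 and 373 CPM for 6 microglia markers against 256 to 327 CPM, and 62.9 and 186 CPM for 6 choroid plexus markers against 40.2 to 186 CPM. No marker of any list was called by edgeR between ONX-0914 and control, where 0.114% of all genes were. An unadjusted p under 0.05 was reached by 18.6% of all genes. Of those tested, 6 of 10 hippocampal, 6 of 8 thalamus and midbrain, 6 of 9 striatum and 5 of 10 neocortex markers did so. So did 4 of 10 interneuron, 2 of 6 microglia, 1 of 6 astrocyte, 0 of 7 oligodendrocyte lineage and 0 of 4 choroid plexus markers. DESeq2, which called 3.01% of all genes with an adjusted p, called 2 hippocampal, 3 thalamus and midbrain, 4 striatum and 3 neocortex markers. It called none of the other lists.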

How the data were processed

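The files deposited by the authors hold whole-number counts of reads on genes, not normalized, 1 file per library, from directional single-end reads of 100 bases. The submitters' processing notes name Trimmomatic 0.39, STAR 2.7.3a, featureCounts 2.00 and GRCm39. The annotation and strand setting are not given in the sources used here. Reads on no feature (4.75% to 6.49%) or ambiguous (3.75% to 3.92%) stayed out of the library sizes.

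Tests used edgeR 4.0.16 (R 4.3.3): filterByExpr by group, TMM scaling, glmQLFit and glmQLFTest (legacy = FALSE) with 1 mean per group over all 7 libraries (4 residual degrees of freedom, common BCV 0.249), and Benjamini–Hochberg adjustment over 13152 genes. Genes with an FDR under 0.05 are called DEG. Log2FC values use a prior count of 0.125, and standard errors come from the F statistics. CPM uses TMM-scaled library sizes. Levels per kb use the union of all exons annotated for a gene in GENCODE M21, which also gave symbols and coding sequences, aligned with MAFFT 7.526. Poisson limits cover counting error only.

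The members and all 12 gene lists were chosen with earlier results of these data known. Named genes were the 8 members, the 5 nearest profiles, and called or otherwise extreme genes of the 3 related lists. Single markers were named after their values were seen. Alternatives included DESeq2 1.42.0, other scalings and filters, a replicate block, and leaving out each library. The fit was tested on data simulated with known changes between ONX-0914 and control. It called 16.2% of genes with an absolute Log2FC of 1 and 81.25% of those with 2. Of its 106 calls, 12 were false. Some sequences are not reported here.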

Additional observations from a re-analysis of the deposited data

How the results depend on the processing

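Each of the 24 Log2FC values (8 members, 3 comparisons) was recomputed under 16 alternatives. No value that was called in any of them had the opposite sign to the value reported. In ONX-0914 against control, where 0 of 7 members were called, 2 were called without a filter on low counts (Kcnip2 and Kcnip4) and 1 with DESeq2 (Kcnip2), and leaving out 1 library gave 0 to 4, the 4 being Kcnd2, Kcnd3, Kcnip1 and Kcnip2 without ONX-0914 replicate 2, when 19% of all genes were called, and 2 (Kcnip2 and Kcnip4) without replicate 1. In ONX-0914 against DMSO, 1 was called without the filter (Kcnip4), and leaving out 1 library gave 0 to 3: 3 without ONX-0914 replicate 2 (Kcnd3, Kcnip1 and Kcnip2; 17% of all genes) and 2 without replicate 1 (Kcnip2 and Kcnip4; 46% of all genes). An arm left with 1 library is assumed to vary like the other groups. In DMSO against control, 0 were called throughout. The cause of these differences was not tested.

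Leaving out 1 library turned the sign of 9 Log2FC values, none of them reported as called. In ONX-0914 against control they ranged from -0.13 (without ONX-0914 replicate 1) to 0.54 for Kcnd3, from -0.22 (without ONX-0914 replicate 1) to 1.31 for Kcnip1, and from -0.045 (without control replicate 1) to 0.34 for Kcnip3. In ONX-0914 against DMSO they ranged from -0.31 to 0.016 (without DMSO replicate 2) for Dpp6 and from -0.455 to 0.11 (without ONX-0914 replicate 1) for Kcnd2, which also turned to 0.016 with total counts. In DMSO against control they ranged from -0.275 to 0.010 for Dpp10, from -0.31 to 0.018 for Dpp6 and from -0.34 to 0.056 for Kcnip4, each positive without DMSO replicate 3, and from -0.41 to 0.017 (without control replicate 3) for Kcnip3. Dpp10 kept its sign in both ONX-0914 comparisons, at 1.59 to 1.79 against control and 1.63 to 1.91 against DMSO. Total counts in place of TMM moved the median of all genes from 0.05 to 0.19 in ONX-0914 against control, and Dpp10 from 1.65 to 1.79. Deviations from the group means of same-numbered libraries correlated between -0.0963 and 0.064. In a group of 2 libraries the deviations mirror each other, so these values cannot decide whether the replicate numbers mark a shared batch. With the replicate number as a block, 0 members were called in each comparison, and 1, 0 and 0 genes in all where 15, 2 and 6 had been. The earlier quasi-likelihood form, chosen after seeing the data, called 0 members. Depth limits Dpp10, Kcnip1 and Kcnip4 most, with as few as 34 counts in a library.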
